A study of Mus musculus with 8 samples.

Results

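The aminoacyl-tRNA synthetase genes were followed in livers of 2-month-old C57BL/6 mice that carried an adenovirus for 1 week. Members were 36 named genes, found by symbol among 55536 gene entries: 20 cytosolic enzymes or subunits and 16 mitochondrial enzymes, whose symbols end in 2. The shEif4ebp3 group (n = 4) had received a short hairpin RNA against Eif4ebp3, and the shLacZ group (n = 4) one against lacZ, a bacterial gene that mice lack. Both groups were lean wild-type mice, were injected with 0.1 OD of virus, and were fasted overnight before the liver was taken, so all samples share the virus and the fast. The sources used here do not say which liver cells took up the virus or what sex the mice were. The question was which synthetase transcripts changed with the hairpin against Eif4ebp3, and whether the cytosolic and the mitochondrial enzymes differed alike.

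Aminoacyl-tRNA synthetases join each amino acid to its tRNA, the step that fixes the genetic code, and they fall into class I and class II by the fold of the catalytic domain. Most amino acids have a separate enzyme for the cytosol and for the mitochondrion, both encoded in the nucleus. Gars and Kars are exceptions, since each encodes the cytosolic and the mitochondrial form, and Eprs joins the glutamate and proline enzymes in a single protein. Several cytosolic enzymes sit in a multisynthetase complex held by the scaffold proteins Aimp1, Aimp2 and Eef1e1. Uncharged tRNA activates the kinase GCN2, which raises ATF4, and ATF4 is known to drive many cytosolic synthetase genes, but few mitochondrial ones, through a promoter element called CARE. The hairpin's target, Eif4ebp3, encodes a repressor of translation that acts by binding eIF4E, the factor that recognises the mRNA cap.

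Whole liver RNA gave 24371461 to 32389444 estimated counts per sample. Eif4ebp3 held 9.62, 13.9, 37.2 and 19.5 normalised CPM (counts scaled to a common library size) in shEif4ebp3 replicates 1 to 4, against 289.5, 216, 204 and 49.3 CPM in shLacZ replicates 1 to 4. Every knockdown sample lay below every control, and shLacZ replicate 4 lay nearest to the knockdown samples (log2 fold change -3.24 ± 0.53, adjusted p = 0.000379, edgeR). Of 15375 genes tested, 57.2% differed at an adjusted p under 0.05 in edgeR's quasi-likelihood test, 29.5% higher and 27.8% lower. CPM here is scaled by TMM factors, which place the median gene near no change (median log2 fold change -0.0032). Scaled by total counts instead, the median of all genes was 0.56 on the log2 scale, and 71.7% of genes differed, 63.9% higher and 7.72% lower. A change below is therefore a change relative to the median gene. DESeq2, run as an alternative with its own filter, called 45.8% of 19832 genes, 23.9% higher and 22% lower. Of 10 hepatocyte markers, 0 rose and 9 fell, with a summed level of 51450 to 67180 CPM in shEif4ebp3 livers against 65360 to 90850 CPM in shLacZ livers; under total-count scaling 1 was higher and 7 lower. Of 15 macrophage markers, 14 rose (1730 to 2005 CPM in sum in shEif4ebp3 livers against 664 to 876 CPM in shLacZ livers). Of 15 T and NK cell markers, 14 rose and 1, Cd4, fell (74.4 to 101 CPM in shEif4ebp3 livers against 24.3 to 44.2 CPM in shLacZ livers). Of 12 stellate cell markers, 10 rose (586 to 1004 CPM in shEif4ebp3 livers against 209 to 253 CPM in shLacZ livers), and of 10 markers of dividing cells all 10 rose (123 to 186 CPM in shEif4ebp3 livers against 20.8 to 51.4 CPM in shLacZ livers). Of 10 endothelial markers, 1 rose and 2 fell (295 to 527 CPM in shEif4ebp3 livers against 445 to 499 CPM in shLacZ livers), whereas under total-count scaling 4 were higher and 0 lower. Of 8 bile duct markers, 6 were tested, of which 3 rose and 1 fell (97.5 to 131 CPM in shEif4ebp3 livers against 64.7 to 83 CPM in shLacZ livers; 5 higher and 0 lower under total-count scaling). No marker of these lists was at 0 in all samples. Their part in the synthetase results was not tested, and in whole liver RNA fewer cells of a type and less RNA per cell cannot be told apart.

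Cytosolic synthetases moved in both directions and mitochondrial ones mostly did not pass or fell. All 36 members passed the filter on low counts. Of the 20 cytosolic genes, 5 rose (Vars, Wars, Cars, Gars and Sars), 5 fell (Tars, Eprs, Dars, Aars and Mars1) and 10 did not pass. Of the 16 mitochondrial genes, 1 rose (Pars2), 5 fell (Nars2, Hars2, Yars2, Aars2 and Fars2) and 10 did not pass. The 16 changed genes are 44.4% of the members, against 57.2% of all genes tested. This order depends on the setting: under total-count scaling 88.9% of the members and 71.7% of all genes were called, and under DESeq2 the same 16 members stood against 45.8% of the genes it tested. The share is therefore not a result about the synthetases. The median log2 fold change was 0.0092 for the cytosolic genes, with a range of -0.86 to 1.07, and -0.066 for the mitochondrial genes, with a range of -0.88 to 0.55. Over all genes tested the 10th and 90th percentiles were -0.84 and 1.40. Under total-count scaling 17 cytosolic genes were higher and 1 lower, and 13 mitochondrial genes were higher and 1 lower, with medians of 0.58 and 0.50 beside the 0.56 of all genes. The genes that were lower under both scalings were Tars and Nars2.

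**Figure D1:**
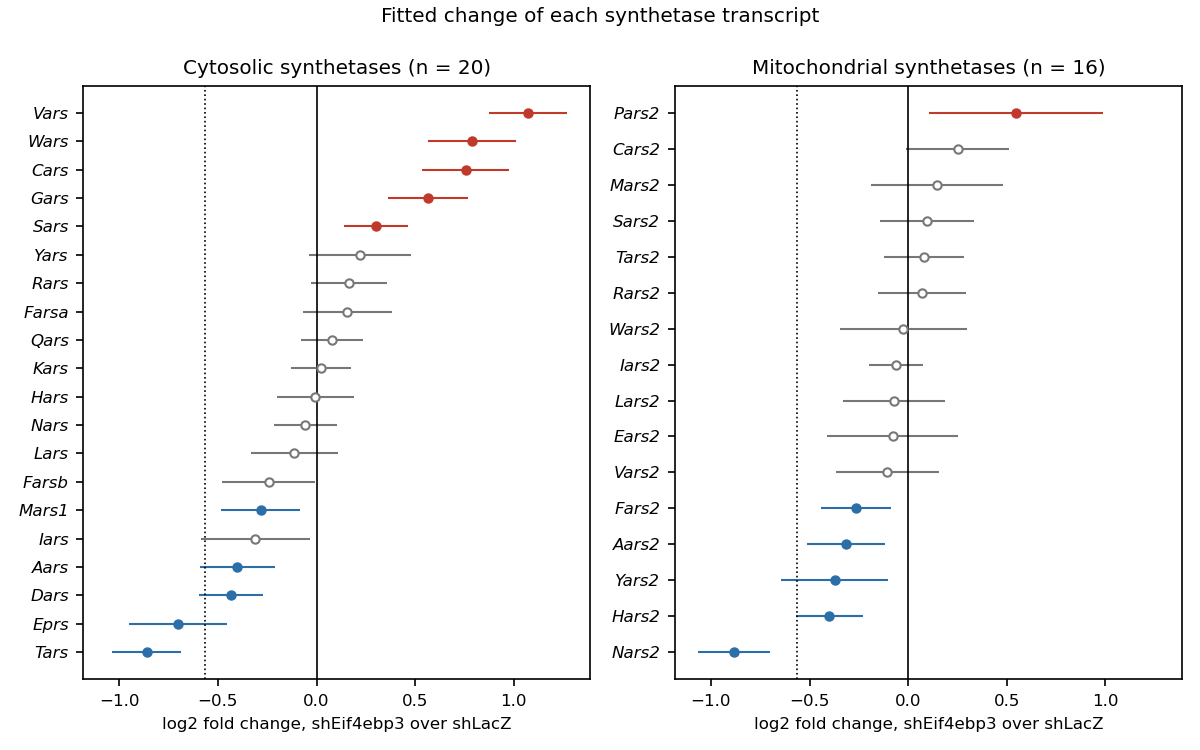
Log2 fold change of shEif4ebp3 over shLacZ for each cytosolic (left) and mitochondrial (right) synthetase gene, with 95% confidence intervals; filled points passed the test (red higher, blue lower) and open points did not. The dotted line marks where no change would lie under total-count scaling. Cytosolic values run from -0.86 (Tars) to 1.07 (Vars), mitochondrial ones from -0.88 (Nars2) to 0.55 (Pars2).

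Vars, the cytosolic valine enzyme (mm10 chromosome 17, 35000987 to 35016322), showed the largest increase of any member. It held 90.2, 97.8, 101 and 81.9 CPM in shEif4ebp3 replicates 1 to 4, against 45.9, 44.2, 47.2 and 38.9 CPM in shLacZ replicates 1 to 4. The groups did not overlap, and the lowest knockdown sample lay well above the highest control. The log2 fold change was 1.07 ± 0.09 (SE), a fold of 2.10, with an adjusted p of 4.15e-06 (edgeR). Wars, the tryptophan enzyme, which is also a known target of interferon gamma, held 43.2, 42.7, 46.4 and 40.3 CPM in the knockdown samples against 21.8, 25.4, 23.1 and 29.6 CPM in the controls. Here shLacZ replicate 4 was the highest control, and the groups still did not overlap (log2 fold change 0.79 ± 0.10, adjusted p = 6.68e-05, edgeR). All 15 genes of the interferon gamma list rose in the same samples, where 29.5% of all genes tested rose. Their summed level was 1046 to 1435 CPM in shEif4ebp3 livers against 367 to 681 CPM in shLacZ livers. Those with the smallest p were Ciita, the regulator of class II antigen presentation (2.68 ± 0.29), the immunoproteasome subunits Psmb8 (1.12 ± 0.12) and Psmb9 (1.22 ± 0.15), and the GTPase Gbp2 (2.05 ± 0.25). The part of that response in the Wars value was not tested.

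Cars, the cysteine enzyme, held 30.3, 31.3, 34.7 and 28.6 CPM in shEif4ebp3 livers, against 15.7, 19.5, 18.4 and 20.3 CPM in shLacZ livers. The groups were separated, with a log2 fold change of 0.76 ± 0.10 and an adjusted p of 8.37e-05 (edgeR). Gars, the glycine enzyme of both compartments, held 67.5, 74.4, 68.5 and 66.6 CPM in shEif4ebp3 livers, against 48.4, 48, 52 and 39 CPM in shLacZ livers (0.56 ± 0.09, adjusted p = 0.00038, edgeR). Sars, the serine enzyme, rose least of the 5, to 61.1, 69.5, 70.8 and 63.8 CPM in shEif4ebp3 livers, against 56.9, 52.3, 54.2 and 51.7 CPM in shLacZ livers (0.30 ± 0.07, adjusted p = 0.00495, edgeR). In each of the 5 genes every knockdown sample lay above every control, as for 27.4% of all genes tested.

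Tars, the threonine enzyme (mm10 chromosome 15, 11382301 to 11399665), showed the largest decrease among the cytosolic members. It held 81.5, 81.1, 88.2 and 87.2 CPM in shEif4ebp3 livers, against 169, 149, 158 and 138 CPM in shLacZ livers. Each group was tight and the gap between them wide, with a log2 fold change of -0.86 ± 0.08 and an adjusted p of 7.26e-06 (edgeR). Eprs, the joint glutamate and proline enzyme, held 118, 118, 114 and 121 CPM in the knockdown samples against 205, 191, 223 and 148 CPM in the controls. The knockdown samples were nearly equal, whereas shLacZ replicate 4 lay apart from the other controls, towards the knockdown level. The log2 fold change was -0.70 ± 0.11 (adjusted p = 0.000324, edgeR) and -0.12 under total-count scaling, where it did not pass.

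Dars, the aspartate enzyme, held 58.4, 59.7, 55.9 and 61.2 CPM in shEif4ebp3 livers, against 81.5, 83.9, 80.9 and 71.2 CPM in shLacZ livers (log2 fold change -0.43 ± 0.07, adjusted p = 0.000487, edgeR). Aars, the alanine enzyme, held 185, 193, 220 and 195 CPM in shEif4ebp3 livers, against 261, 266, 285 and 235 CPM in shLacZ livers (-0.40 ± 0.09, adjusted p = 0.00222, edgeR). In both genes the groups did not overlap and replicate 4 was the lowest control. Of the Aars exon bases, 1326 are shared with Exosc6 on the same strand, so its count is uncertain to that extent. Mars1, the methionine enzyme, whose symbol in the files is Mars, held 55.9, 60.3, 64.8 and 59.7 CPM in the knockdown samples against 78.3, 71.8, 80.8 and 62.4 CPM in the controls. It was the member among the 16 changed genes whose groups overlapped, since shLacZ replicate 4 lay below shEif4ebp3 replicate 3. Its log2 fold change was -0.28 ± 0.09 (adjusted p = 0.0201, edgeR), and the call was lost without shEif4ebp3 replicate 1 (adjusted p = 0.0599), shLacZ replicate 1 (adjusted p = 0.0577) or shLacZ replicate 3 (adjusted p = 0.0602). Mars1 shares 68 exon bases with Ddit3 on the opposite strand. Under total-count scaling the log2 fold changes of Aars and Mars1 turned to 0.17 and 0.29 and passed, and that of Dars turned to 0.14 and did not pass.

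**Figure D2:**
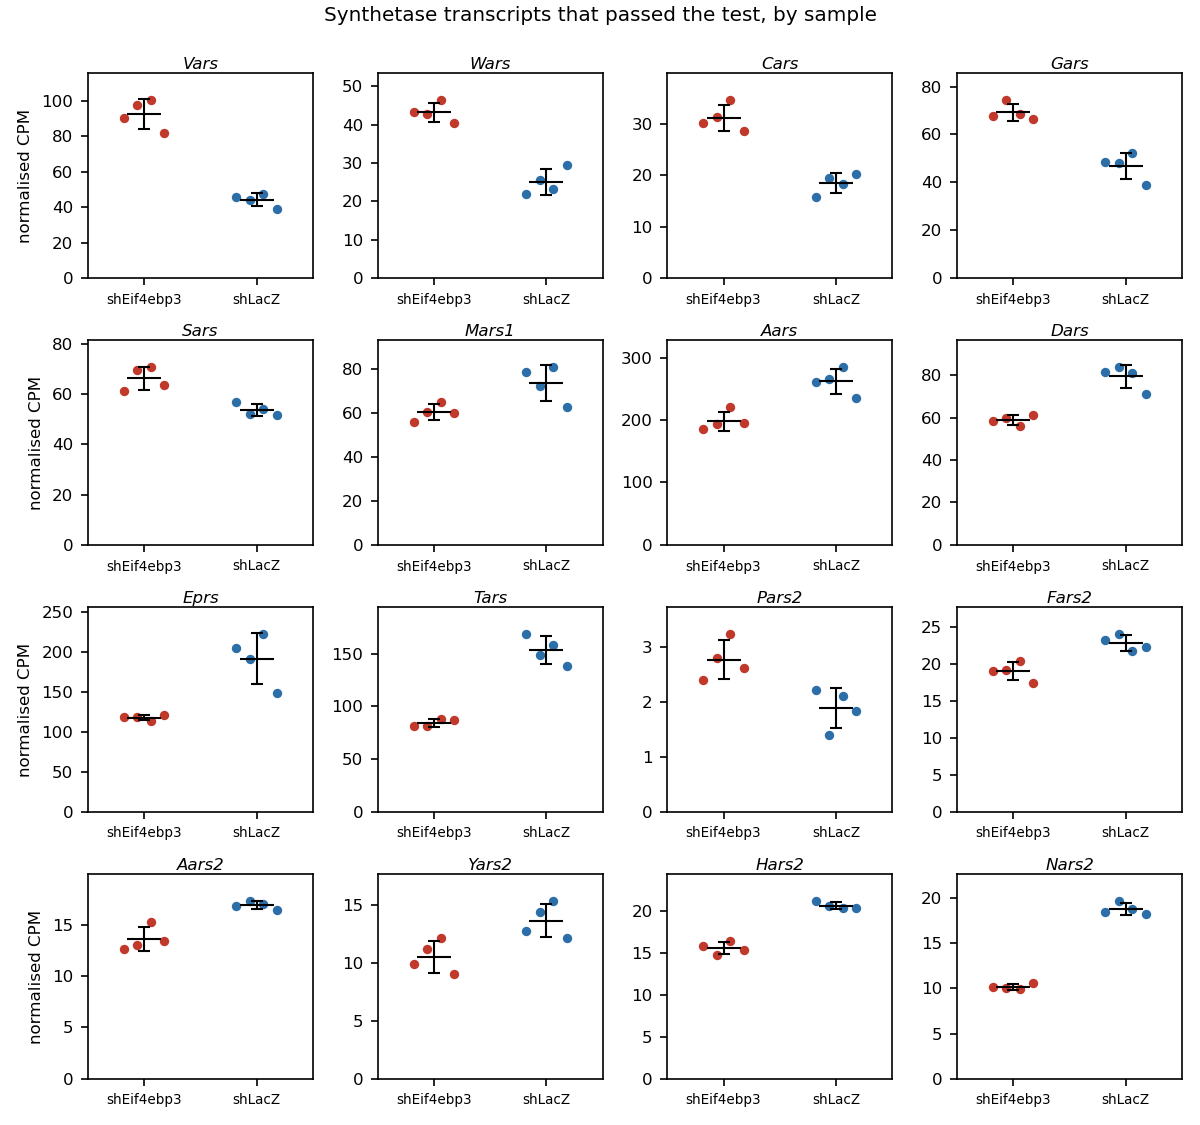
Normalised CPM in each sample (points) with mean and SD (black) for the 16 synthetase genes that passed the test, shEif4ebp3 left and shLacZ right in each panel; axes start at 0. Vars averaged 92.6 CPM in shEif4ebp3 livers and 44 CPM in shLacZ livers, Tars 84.5 CPM in shEif4ebp3 livers and 154 CPM in shLacZ livers, and Nars2 10.1 CPM in shEif4ebp3 livers and 18.7 CPM in shLacZ livers, while the groups of Mars1 overlap.

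Among the 10 cytosolic genes that did not pass, the 95% intervals of the log2 fold change limit how large a difference from the median gene could have been. They take the TMM factors as given and leave out the choice of scaling. For Kars, the lysine enzyme of both compartments, the interval was -0.13 to 0.17, with 61.8, 60.7, 61.1 and 55.7 CPM in shEif4ebp3 livers against 60.5, 56.3, 61.6 and 57 CPM in shLacZ livers. The groups of Kars covered the same range. For Qars (glutamine) the interval was -0.08 to 0.23, for Nars (asparagine) -0.22 to 0.10, for Hars (histidine) -0.20 to 0.19 and for Lars (leucine) -0.33 to 0.11. Under total-count scaling Kars (0.59), Qars (0.65), Nars (0.52), Hars (0.57) and Lars (0.46) lay above these intervals and passed as higher. Rars (arginine), Yars (tyrosine) and Farsa, the catalytic subunit for phenylalanine, had log2 fold changes of 0.16 ± 0.09, 0.22 ± 0.12 and 0.16 ± 0.10, and Farsb, the partner subunit of Farsa, one of -0.24 ± 0.11 (adjusted p = 0.0736, edgeR).

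Iars, the isoleucine enzyme, held 50.9, 49.8, 47.9 and 46.4 CPM in shEif4ebp3 livers, against 65.3, 64, 69.1 and 43.8 CPM in shLacZ livers. The first 3 controls lay above all knockdown samples and shLacZ replicate 4 lay below them all. The log2 fold change was -0.31 ± 0.13 (adjusted p = 0.0527, edgeR), and -0.44 without shLacZ replicate 4 (adjusted p = 0.000288). Farsb also passed without that library (-0.32, adjusted p = 0.0147) or without shEif4ebp3 replicate 3 (-0.30, adjusted p = 0.0431), and Yars passed without shLacZ replicate 3 (0.34, adjusted p = 0.0171). Across the 36 members, shLacZ replicate 4 was the lowest control for 25.

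**Figure D3:**
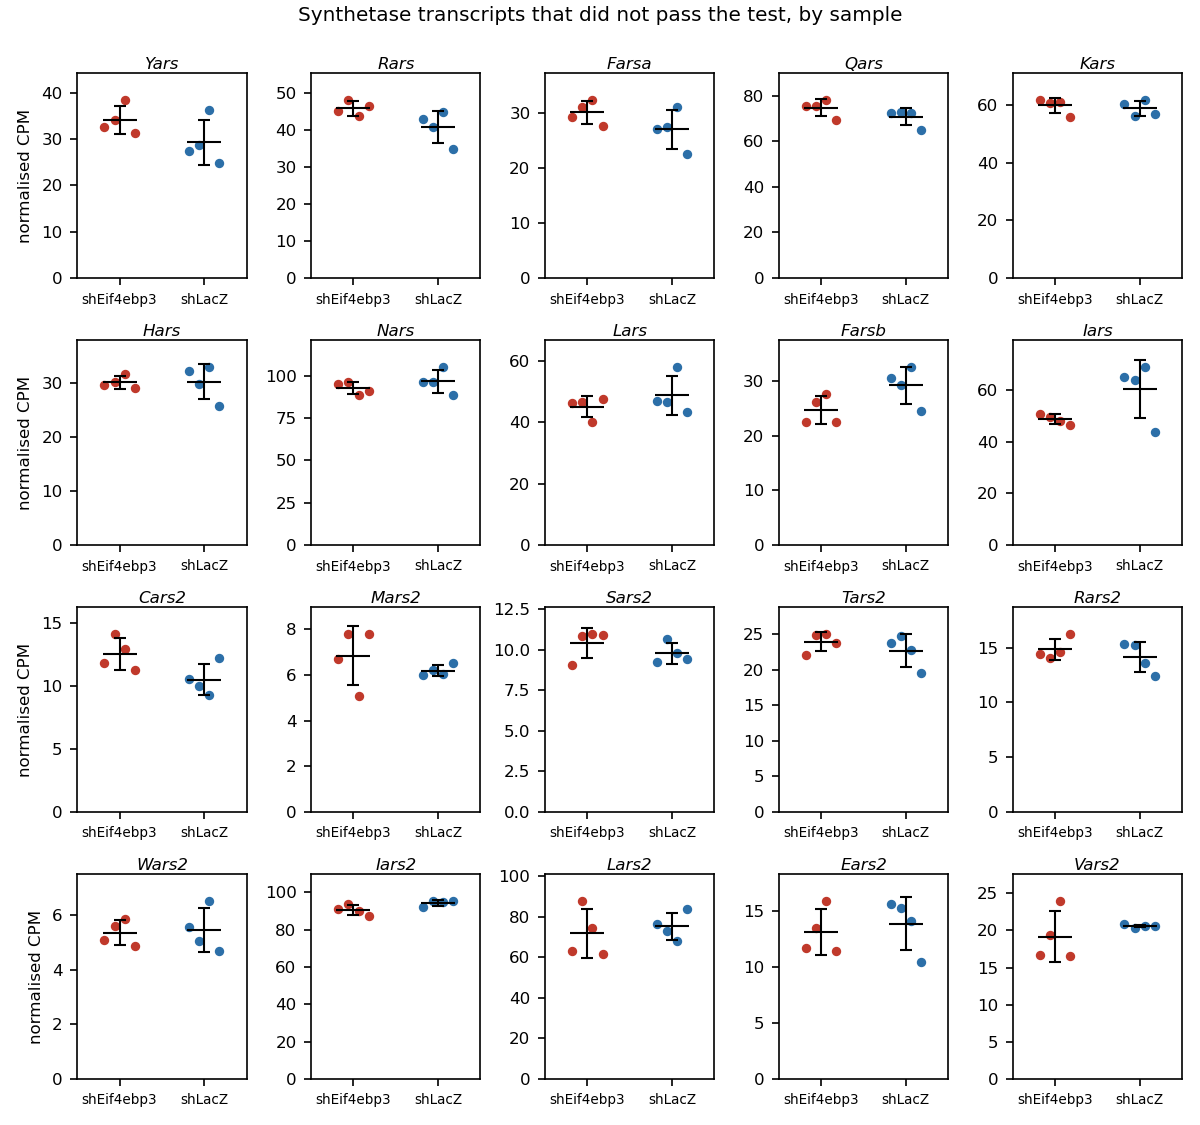
Normalised CPM in each sample (points) with mean and SD (black) for the 20 synthetase genes that did not pass the test, shEif4ebp3 left and shLacZ right in each panel; axes start at 0. Iars averaged 48.8 CPM in shEif4ebp3 livers and 60.5 CPM in shLacZ livers, with shLacZ replicate 4 at 43.8 CPM, and Kars averaged 59.8 CPM in shEif4ebp3 livers and 58.9 CPM in shLacZ livers.

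Among the mitochondrial enzymes the largest change was in Nars2, the asparagine enzyme (mm10 chromosome 7, 96951505 to 97064758). It held 10.1, 9.97, 9.87 and 10.6 CPM in shEif4ebp3 livers, against 18.4, 19.6, 18.7 and 18.1 CPM in shLacZ livers. Both groups were tight, and the knockdown level was 0.54 times the control level (log2 fold change -0.88 ± 0.08, adjusted p = 7.96e-06, edgeR). Its cytosolic counterpart Nars did not pass. Nars2 shares 284 exon bases with C230038L03Rik on the opposite strand. Hars2, the histidine enzyme, held 15.9, 14.7, 16.4 and 15.4 CPM in shEif4ebp3 livers, against 21.2, 20.5, 20.3 and 20.3 CPM in shLacZ livers (-0.40 ± 0.08, adjusted p = 0.0011, edgeR). Hars2 and Hars lie head to head on chromosome 18, 117091 and 100611 bases from the end of Eif4ebp3, and their exons share 195 bases on opposite strands, so reads from those bases may be counted for either gene if strand was not used.

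Aars2, the alanine enzyme, held 12.7, 13, 15.2 and 13.4 CPM in shEif4ebp3 livers, against 16.8, 17.3, 17 and 16.4 CPM in shLacZ livers (-0.31 ± 0.09, adjusted p = 0.0111, edgeR). Fars2, the phenylalanine enzyme, held 19.1, 19.1, 20.4 and 17.4 CPM in shEif4ebp3 livers, against 23.2, 24, 21.8 and 22.2 CPM in shLacZ livers (-0.26 ± 0.08, adjusted p = 0.016, edgeR). Both were separated without overlap. The call of Fars2 was lost with upper-quartile factors and without the filter on low counts. Fars2 shares 616 exon bases with Lyrm4 and Nrn1 on the opposite strand. Yars2, the tyrosine enzyme, held 9.91, 11.2, 12.2 and 9.03 CPM in shEif4ebp3 livers, against 12.8, 14.4, 15.4 and 12.2 CPM in shLacZ livers, so that the groups nearly touched. Its log2 fold change was -0.37 ± 0.12 (adjusted p = 0.0236, edgeR), and the call was lost without shEif4ebp3 replicate 1 or 4 (adjusted p = 0.0589 and 0.0636) or shLacZ replicate 2 or 3 (adjusted p = 0.0595 and 0.069). Pars2, the proline enzyme and among the least abundant members, held 2.4, 2.79, 3.23 and 2.62 CPM in shEif4ebp3 livers, against 2.21, 1.4, 2.11 and 1.83 CPM in shLacZ livers. The difference of 0.55 ± 0.20 passed (adjusted p = 0.0365, edgeR), and it was lost without shEif4ebp3 replicate 2, 3 or 4 (adjusted p = 0.079, 0.086 and 0.0562) or shLacZ replicate 2 or 4 (adjusted p = 0.11 and 0.062). Under total-count scaling the log2 fold changes of Aars2 and Fars2 turned to 0.25 and 0.30 and passed, and those of Hars2 and Yars2 turned to 0.17 and 0.20 and did not pass.

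The other 10 mitochondrial genes did not pass. Iars2, the isoleucine enzyme and the member of this compartment with the most counts, held 91, 93.6, 89.7 and 87.2 CPM in shEif4ebp3 livers, against 92.1, 95.3, 94.6 and 95.4 CPM in shLacZ livers. Its 95% interval, -0.20 to 0.07, was the narrowest of the 10, given the TMM factors (0.51 under total-count scaling). Iars2 shares 2148 exon bases with 2010103J01Rik and Rab3gap2 on the opposite strand, so its count is uncertain if strand was not used. Lars2 (leucine) varied more among the knockdown samples, with 63.2, 87.9, 74.7 and 61.6 CPM against 76.6, 72.8, 68.2 and 84.1 CPM in the controls. The fitted values were 0.15 ± 0.15 for Mars2 (methionine), 0.09 ± 0.11 for Sars2 (serine), 0.08 ± 0.09 for Tars2 (threonine) and 0.07 ± 0.10 for Rars2 (arginine). They were -0.03 ± 0.15 for Wars2 (tryptophan), -0.08 ± 0.15 for Ears2 (glutamate) and -0.11 ± 0.12 for Vars2 (valine), which had a log2 fold change of -0.23 without shEif4ebp3 replicate 3 (adjusted p = 0.0455, edgeR). Cars2 (cysteine) had 0.25 ± 0.12, and 0.33 without shLacZ replicate 4 (adjusted p = 0.0317, edgeR).

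The ratio of a cytosolic enzyme to the mitochondrial enzyme of the same amino acid, taken within a sample, does not depend on how libraries are scaled to each other. Of 15 such pairs, 7 had a higher ratio in every shEif4ebp3 liver than in any shLacZ liver, 2 had a lower ratio without overlap, and 6 overlapped. These counts are a description, without a background over all genes. For valine the log2 ratio of counts, Vars over Vars2, was 2.44, 2.33, 2.07 and 2.31 in shEif4ebp3 livers, against 1.14, 1.12, 1.20 and 0.92 in shLacZ livers, so the balance of the 2 transcripts moved 2.29-fold towards the cytosolic one. For asparagine, Nars over Nars2 was 3.23, 3.27, 3.17 and 3.11 in shEif4ebp3 livers, against 2.39, 2.29, 2.49 and 2.29 in shLacZ livers, a 1.78-fold shift. With TMM factors the shift came with a lower Nars2 and a Nars value that did not pass (0.52 and higher under total-count scaling). For tryptophan the ratio was 1.76-fold higher, for tyrosine 1.52-fold, for cysteine 1.42-fold, for phenylalanine (Farsa over Fars2) 1.34-fold and for histidine 1.32-fold. The phenylalanine pair used Farsa alone and left out its partner subunit. Farsb (log2 fold change -0.24) and Fars2 (-0.26) moved alike, so the phenylalanine shift depends on the subunit chosen.

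The 2 pairs that moved the other way were threonine and glutamate. Tars over Tars2 was 1.88, 1.70, 1.81 and 1.87 on the log2 scale in shEif4ebp3 livers, against 2.83, 2.58, 2.79 and 2.83 in shLacZ livers, a ratio 0.52 times that of the controls. Eprs over Ears2 was 0.65 times that of the controls. Eprs (log2 fold change -0.70) was not paired with Pars2, the mitochondrial proline enzyme (0.55). For alanine both enzymes fell relative to the median gene, and both were higher under total-count scaling (Aars 0.17, Aars2 0.25). The log2 ratio of Aars to Aars2, 3.87 ± 0.02, overlapped that of the controls, 3.95 ± 0.09 (SD, n = 4 each). The pairs of serine, arginine, leucine, isoleucine and methionine overlapped as well, with differences in the log2 ratio of 0.21, 0.10, -0.03, -0.23 and -0.40. Without shLacZ replicate 4, 4 pairs in place of 2 were lower without overlap.

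**Figure D4:**
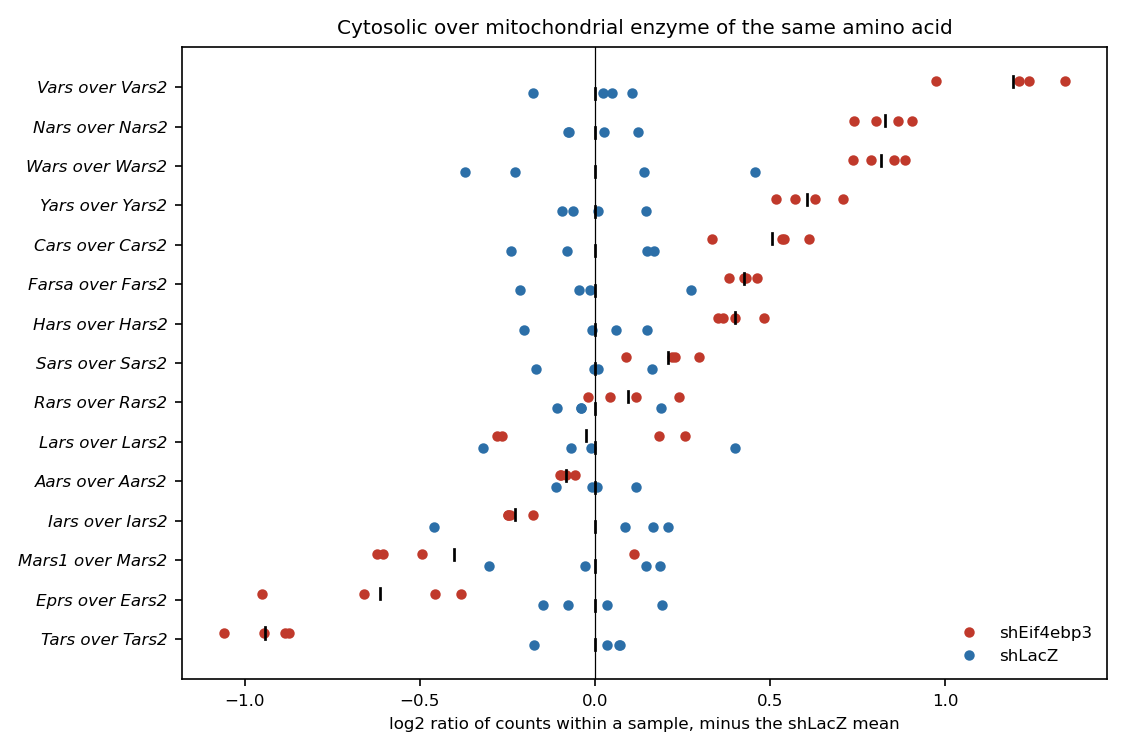
Log2 ratio of cytosolic to mitochondrial counts in each sample, minus the shLacZ mean of that pair (points; black ticks are group means), for 15 amino acids. The difference between group means runs from 1.19 for Vars over Vars2 to -0.94 for Tars over Tars2.

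By structure and partners the members divided as follows. Of 8 cytosolic enzymes that belong to the multisynthetase complex (Dars, Eprs, Iars, Kars, Lars, Mars1, Qars and Rars), 0 rose and 3 fell, with a median log2 fold change of -0.20. Of the 12 outside it, 5 rose and 2 fell, with a median of 0.19. In either direction 37.5% of the 8 and 58.3% of the 12 were called, against 57.2% of all genes tested, so the genes outside the complex were near that share. No test was made of this division, and under total-count scaling 6 of the 8 and 11 of the 12 were higher. Eprs, which joins an enzyme of each class, was left out of the division by class. Among class I enzymes 3 of 9 cytosolic genes rose and 1 fell, and 0 of 9 mitochondrial genes rose and 1 fell. Among class II enzymes 2 of 10 cytosolic genes rose and 3 fell, and 1 of 7 mitochondrial genes rose and 4 fell. The shares called were 44.4%, 11.1%, 50% and 71.4% in that order, of few genes each, and were not tested against the 57.2% of all genes. Under total-count scaling 9 of 9 cytosolic and 8 of 9 mitochondrial class I genes were higher. There 8 of 10 cytosolic and 5 of 7 mitochondrial class II genes were higher, and 1 of each was lower. Of the complex scaffolds, Aimp2 rose by 0.54 ± 0.14, to 8.24 ± 1.02 CPM in shEif4ebp3 livers against 5.68 ± 0.63 CPM in shLacZ livers (SD, n = 4 each; adjusted p = 0.00691, edgeR). Aimp1 (-0.19 ± 0.09) and Eef1e1 (0.20 ± 0.15) did not pass.

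Levels of different members can be set side by side only per length, as TPM (counts per length, scaled to the same total in every sample). In sum the cytosolic members held 808 ± 43.7 TPM in shEif4ebp3 livers and 489 ± 27.7 TPM in shLacZ livers, and the mitochondrial members 170 ± 9.60 TPM in shEif4ebp3 livers and 109 ± 5.90 TPM in shLacZ livers (SD, n = 4 each). Differences in TPM need not equal those under total-count scaling. Eprs held 20.7 ± 1.55 TPM in shEif4ebp3 livers and 19.8 ± 2.57 TPM in shLacZ livers. Its log2 fold change under total-count scaling was -0.12. TPM divides by the summed counts per length of a sample, so the sums above depend on this scaling between groups. The ratio of the cytosolic to the mitochondrial sum, which is free of that scaling, was 4.93, 4.67, 4.63 and 4.83 in shEif4ebp3 livers against 4.60, 4.40, 4.90 and 4.11 in shLacZ livers, and the groups overlapped. Aars was the most abundant member in shLacZ livers (52.8 ± 3.70 TPM) and the third in shEif4ebp3 livers (67.8 ± 1.74 TPM). Vars ranked 5 in shEif4ebp3 livers and 17 in shLacZ livers, and Tars ranked 6 in shEif4ebp3 livers and 2 in shLacZ livers. Mars2, Pars2 and Wars2 were the lowest in both groups, at 1.94, 2.82 and 2.87 TPM in shEif4ebp3 livers and 1.03, 1.14 and 1.72 TPM in shLacZ livers. The order, its top included, depends on the gene length used, although Aars stayed first in shLacZ livers and the 3 lowest genes stayed lowest. By the length in the authors' deposited table Vars ranked 10 in shEif4ebp3 livers and 20 in shLacZ livers, and Tars ranked 12 in shEif4ebp3 livers and 3 in shLacZ livers. In shEif4ebp3 livers the first place went to Gars by merged exon length and to Sars, otherwise ranked 10, by the authors' deposited table. Eprs ranked 19 in shEif4ebp3 livers and 14 in shLacZ livers by merged exon length, and 8 in shEif4ebp3 livers and 2 in shLacZ livers by the length in the authors' deposited table.

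The promoters of the members were searched for the CARE element, spelled TGATGNAA, on both strands of the window from 250 bases before to 50 bases after the RefSeq start (GRCm38.p6). A window was found for 27 of the 36 members. The members without one were Cars, Hars, Lars, Nars, Rars, Vars, Wars, Hars2 and Pars2. The element was present for 5 of 13 cytosolic genes and 0 of 14 mitochondrial genes, against 3.97% of 32851 windows, which belong to 27025 genes. Members were counted by gene and the background by window, so the shares are in unlike units. The 5 windows are shown because, with TMM factors, the genes that share the element did not share a direction: Gars rose, Aars and Tars fell, and Iars and Yars did not pass. Under total-count scaling Gars (1.14), Yars (0.79), Iars (0.27) and Aars (0.17) passed as higher and Tars (-0.29) as lower. They read 5′ to 3′ along the gene, with the element in capitals (on the minus strand of the gene in Gars, Aars, Tars and Iars).
Gars (chr6:55037751-55038050, plus strand): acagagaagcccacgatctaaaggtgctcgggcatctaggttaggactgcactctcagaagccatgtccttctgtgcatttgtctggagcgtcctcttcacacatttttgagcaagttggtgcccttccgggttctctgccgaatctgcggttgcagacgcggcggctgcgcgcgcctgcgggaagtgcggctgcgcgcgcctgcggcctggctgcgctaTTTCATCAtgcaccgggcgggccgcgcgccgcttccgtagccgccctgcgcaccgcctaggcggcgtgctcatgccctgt
Aars (chr8:111033592-111033891, plus strand): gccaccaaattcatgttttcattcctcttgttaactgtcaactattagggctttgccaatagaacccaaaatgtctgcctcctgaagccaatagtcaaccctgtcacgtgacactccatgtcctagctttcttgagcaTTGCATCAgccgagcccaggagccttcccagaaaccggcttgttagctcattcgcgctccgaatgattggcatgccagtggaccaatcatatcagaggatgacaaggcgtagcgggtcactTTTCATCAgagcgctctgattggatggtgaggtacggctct
Tars (chr15:11399609-11399908, minus strand): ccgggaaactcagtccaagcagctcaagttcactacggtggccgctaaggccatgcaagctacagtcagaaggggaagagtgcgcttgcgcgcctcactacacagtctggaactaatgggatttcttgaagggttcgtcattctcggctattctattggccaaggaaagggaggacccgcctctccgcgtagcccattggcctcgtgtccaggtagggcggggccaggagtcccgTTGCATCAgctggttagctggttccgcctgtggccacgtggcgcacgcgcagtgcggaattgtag
Iars (chr13:49681880-49682179, plus strand): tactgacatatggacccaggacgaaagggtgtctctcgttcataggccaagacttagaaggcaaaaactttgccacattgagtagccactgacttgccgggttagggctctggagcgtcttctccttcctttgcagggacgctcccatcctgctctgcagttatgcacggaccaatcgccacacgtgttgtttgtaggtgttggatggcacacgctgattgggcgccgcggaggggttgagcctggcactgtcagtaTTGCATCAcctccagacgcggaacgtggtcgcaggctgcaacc
Yars (chr4:129189653-129189952, plus strand): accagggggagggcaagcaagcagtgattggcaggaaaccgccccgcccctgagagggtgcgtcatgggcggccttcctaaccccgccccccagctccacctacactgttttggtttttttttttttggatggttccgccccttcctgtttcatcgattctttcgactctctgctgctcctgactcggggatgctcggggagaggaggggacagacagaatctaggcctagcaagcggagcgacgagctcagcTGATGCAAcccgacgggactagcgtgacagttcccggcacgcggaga
In Gars the element begins 30 bases before the start and in Tars 15 bases before it. Aars holds 2 copies, 112 bases before and 10 bases after the start, and in Iars and Yars it lies 8 and 4 bases after the start. A match is a description of these letters and not a measured binding site.

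Of 20 genes of the GCN2 and ATF4 response, 11 rose and 2 fell, where 29.5% of all genes tested rose and 27.8% fell, with a median log2 fold change of 0.67 beside -0.0032 for all genes tested. Called in either direction were 65% of the list, near the 57.2% of all genes, and no test was made against the synthetases. Under total-count scaling 17 of the list were higher and 1 lower, with a median of 1.24 beside 0.56 for all genes. Psat1, of serine synthesis, rose by 2.58 ± 0.19, to 6.73 ± 0.89 CPM in shEif4ebp3 livers against 1.12 ± 0.24 CPM in shLacZ livers (SD, n = 4 each). Slc7a11, a subunit of the cystine transporter, rose by 6.32 ± 0.48, mitochondrial Pck2 by 1.33 ± 0.11 and Sesn2, an inhibitor of mTORC1, by 0.92 ± 0.10 (each adjusted p at most 1.82e-05, edgeR). Slc7a11 held 12.7 ± 4.48 CPM in shEif4ebp3 livers and 0.151 ± 0.175 CPM in shLacZ livers (SD). The size of its fold therefore rests on a very low control level. Eif2ak4, which encodes GCN2, rose by 0.34 ± 0.09 (adjusted p = 0.00805, edgeR). Atf4 held 117 ± 10.1 CPM in shEif4ebp3 livers and 97.1 ± 14.2 CPM in shLacZ livers. Its log2 fold change of 0.27 ± 0.11 narrowly did not pass (adjusted p = 0.0517, edgeR), and under total-count scaling Atf4 passed as higher (0.83). The 2 genes that fell were Asns and Atf5, named after their values were seen, and Asns, which makes asparagine, had an SD of 10.5 CPM around a mean of 12.8 CPM in the controls. The call of Asns was lost under 12 of 19 alternatives, among them DESeq2, total-count scaling and the omission of 6 of the 8 libraries (all but shLacZ replicates 2 and 4). Without shLacZ replicate 4, 4 genes of this list fell.

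The shares called in the lists of other tRNA steps are to be read against 57.2% of all genes tested, of which 27.8% were lower. Of 6 genes of selenocysteine tRNA charging and decoding, 0 rose and 4 fell: Sepsecs, which converts the serine on the tRNA, by 1.05 ± 0.08 on the log2 scale, to 47.4 ± 3.10 CPM in shEif4ebp3 livers against 98.1 ± 5.70 CPM in shLacZ livers, Sephs2, which supplies the selenium donor, by 1.03 ± 0.12, and Secisbp2 and Eefsec, which decode selenocysteine, by 0.63 ± 0.12 and 0.21 ± 0.08 (adjusted p of the 4 at most 0.0475, edgeR). These 4 are 66.7% of the list. The call of Eefsec was lost under 13 of 19 alternatives, among them DESeq2, limma-voom and the omission of 6 of the 8 libraries (all but shEif4ebp3 replicate 2 and shLacZ replicate 4). Under total-count scaling Sepsecs (-0.48) and Sephs2 (-0.47) were still lower, Secisbp2 (-0.06, adjusted p = 0.571, edgeR) did not pass, and Eefsec was higher by 0.36. Of 4 genes of mitochondrial tRNA amidation and formylation, Gatb and Gatc, subunits of the amidotransferase that makes glutaminyl-tRNA, fell by 0.67 ± 0.10 and 0.46 ± 0.09 (adjusted p = 0.000184 and 0.00134, edgeR). Qrsl1, the other subunit of that enzyme, did not pass and had the opposite sign (0.23 ± 0.12). Mtfmt did not pass either (0.195 ± 0.13). Gatb and Gatc are 50% of the list. Under total-count scaling Gatb (-0.11) and Gatc (0.11) did not pass. Of 4 proofreading genes, 1 (25%), Aarsd1, fell, by 0.40 ± 0.09 (adjusted p = 0.00263, edgeR), and had 0.17 under total-count scaling, where it did not pass. Of 15 genes of tRNA processing and export, 3 rose and 5 fell, in all 53.3%. The named ones by smallest p were Hsd17b10, a subunit of mitochondrial RNase P (-1.63 ± 0.16), Elac1, a tRNA 3′ end nuclease (-1.01 ± 0.13), the exportin gene Xpot (-0.50 ± 0.07) and Tsen34, of the splicing endonuclease (0.57 ± 0.08). Hsd17b10 also acts in branched-chain amino acid and fatty acid breakdown. The call of Xpot was lost under total-count scaling (0.06), where 10 of these 15 genes were higher and 2 lower.

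In the authors' deposited table, 6 of the 36 members were higher and 10 lower at an adjusted p under 0.05, where 56.1% of the genes tested here pass. Only Vars was marked there as significant, which in that table goes with a fold change of at least 2, while 21.5% of the genes tested here are so marked. The log2 fold changes in the authors' deposited table and those fitted here differed by at most 0.0125 for any member.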

How the data were processed

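Libraries were made from liver RNA extracted with Trizol, treated with DNase and depleted of ribosomal RNA, per the labels' protocols. The submitters' processing notes name fastp 0.19.5, Bowtie2 2.2.9, GATK 3.8, SAMtools 1.9 and the mm10 build. The sources used here give no counting program, annotation or strandedness. The authors deposited estimated counts per gene, not normalised, of which 10.9% of values are not whole; they were rounded, and 645 assembled loci without a gene name were left out. The authors also deposited a table of fold changes (a ratio), log2 fold changes, p-values and adjusted p-values of knockdown over control, whose name gives DESeq2; its settings are not stated. They deposited a gene length in that table, used for an alternative TPM.

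In R 4.3.3, edgeR 4.0.16 (filterByExpr defaults, TMM, glmQLFit and glmQLFTest) tested all genes, with Benjamini-Hochberg adjustment and a threshold of 0.05; an adjusted p printed with a gene is from that fit. CPM used TMM-scaled library sizes. TPM used merged exon lengths of GENCODE mouse release 21 (mm10), which also gave positions. Of the members 13 share exon bases with another gene. Alternatives were DESeq2 1.42.0, limma-voom 3.58.1, other scalings and filters, covariates and leaving out samples; the authors' gene length was added after the data were seen. The test was tried on simulated data in which few genes changed, in both directions. Many genes differ in these samples, so the simulation does not check the scaling between groups. The labels do not say whether each sample is a separate mouse, so the p-values reflect sample-to-sample spread, which may be technical. Replicates differed by more than counting error (lowest chi-square per degree of freedom 8.94). The members and lists were chosen with earlier results of these data known. The text accounts for all members, names Eif4ebp3, Atf4 and Eif2ak4, and up to 4 changed genes of each list by smallest p; marker lists are given as counts.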

Additional observations from a re-analysis of the deposited data

Results flagged for a closer look

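In 3 of the 72 groups of 4 values examined for the members, 1 sample stood apart from the others by more than Dixon's 95% critical value (chance flags about 1 group in 20), Lars only just. Lars held 40.1 CPM in shEif4ebp3 replicate 3, below the 46.3 to 47.5 CPM of the other knockdown samples. Qars held 65.05 CPM in shLacZ replicate 4, below the 72.5 to 72.7 CPM of the other controls. Sars2 held 9.02 CPM in shEif4ebp3 replicate 1, below the 10.8 to 11 CPM of the other knockdown samples. None of these 3 genes passed the test. In 2 of 30 groups of ratios the same held: the log2 ratio of Iars to Iars2 was -0.84 in shEif4ebp3 replicate 1, against -0.91 to -0.90 in the others, and that of Tars to Tars2 was 2.58 in shLacZ replicate 2, against 2.79 to 2.83 in the other controls.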

How the results depend on the processing

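Under DESeq2, limma-voom, RLE factors, a mean CPM of at least 1 and the addition of assembled loci, the calls of all 36 members were those of the main test. Total-count scaling changed most: over all genes 9831 were higher and 1187 lower, cytosolic genes counted 17 and 1, mitochondrial genes 13 and 1, the 67 genes of the 7 pathway lists 51 and 5 (30 and 14 in the main test), and the medians were 0.58 (cytosolic) and 0.50 (mitochondrial). Signs turned there for Aars (0.17), Dars (0.14), Farsb (0.33), Hars (0.57), Iars (0.27), Lars (0.46), Mars1 (0.29), Nars (0.52), Aars2 (0.25), Ears2 (0.49), Fars2 (0.30), Hars2 (0.17), Iars2 (0.51), Lars2 (0.49), Vars2 (0.46), Wars2 (0.55) and Yars2 (0.20), by the construction of that scaling. With upper-quartile factors 2 mitochondrial genes were higher and 3 lower, and the cytosolic median was 0.086. Mars1, Fars2 and Yars2 were lost there, and Rars, Yars and Cars2 passed. Without a filter 0 mitochondrial genes were higher, and Mars1, Fars2 and Pars2 were lost.

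With the replicate number as a block 0 mitochondrial genes were higher and 5 lower, and 6 cytosolic genes were higher and 7 lower; Pars2 was lost and Farsb, Iars and Yars passed. Same-numbered samples deviated with correlations of -0.13, -0.04, 0.06 and 0.15, so the numbers were not taken as pairs. Samples coded C alone gave 5 cytosolic genes higher and 7 lower, 1 mitochondrial gene higher (Cars2 in place of Pars2) and 5 lower, and 4 pairs with a lower ratio; with code D there is 1 sample in each group and no test.

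Without single samples, 5 to 6 cytosolic genes were higher and 4 to 7 lower, 0 to 1 mitochondrial genes higher and 4 to 6 lower, the median log2 fold change of cytosolic synthetases was -0.037 to 0.039 and the median log2 fold change of mitochondrial synthetases -0.09 to -0.01, and 2 to 4 pairs were lower without overlap (4 without shLacZ replicate 4). By the authors' gene length the cytosolic sums were 1005 TPM in shEif4ebp3 livers and 649 TPM in shLacZ livers, the mitochondrial ones 235 TPM in shEif4ebp3 livers and 158 TPM in shLacZ livers. Pars2, with as few as 30 counts in a sample, is the member whose depth limits it most. Causes of these changes other than the scaling were not tested.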
